A study of Mus musculus with 206 samples.

Results

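The 3762 regions described here are H3K27ac regions of the mouse hypothalamus that recurred in the prefrontal cortex (PFC), hippocampus and striatum and lay away from gene starts. They are 27.3% of the 13788 regions of the authors' hypothalamus consensus list, and the 4 consensus lists of the series hold 108274 regions in all. A hypothalamus region was taken when at least 1 bp of it was covered by a region of each of the other 3 consensus lists and when no transcription start site (TSS) of a protein-coding gene of GENCODE M21 lay within 1 kb of it (mm10). The members were thus selected on where peaks were called in these same libraries, and their levels across brain regions are given as a description with no test. Of the 9186 distal regions of the hypothalamus list, 8728 (95%) overlapped a striatum region, 5236 (57%) a hippocampus region and 4882 (53.1%) a PFC region, and 3762 (41%) overlapped all 3. The 5424 other distal regions and the 2465 promoter regions shared by the 4 brain regions served for comparison.

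H3K27ac was profiled by MOWChIP-seq, a microfluidic form of chromatin immunoprecipitation, in about 10000 NeuN+ nuclei per library, NeuN being a protein of neuronal nuclei. All animals were wild-type C57BL/6NTac mice of both sexes, sampled as adults by tissue punches, bilateral in PFC, hippocampus and striatum and adjacent in hypothalamus, 2 h after an injection of lipopolysaccharide (LPS, a bacterial wall component) or saline. MOR-LPS and MOR-SAL mice had been exposed to morphine before birth (10 mg/kg/day through the dam's minipump) and by injection after birth (10 mg/kg, 2 injections a day, postnatal days 1 to 14), while SAL-LPS and SAL-SAL mice had received saline on the same schedule. All pups of all groups were raised by drug-naive surrogate dams, and the morphine groups went through spontaneous withdrawal. The 172 libraries used came from 72 animals, with 49 MOR-LPS, 47 SAL-LPS, 39 MOR-SAL and 37 SAL-SAL libraries. The animals of these groups numbered 20, 18, 19 and 15. The hypothalamus had 10, 11, 12 and 8 libraries of these groups, the PFC 14, 11, 9 and 8, the hippocampus 10, 12, 11 and 11, and the striatum 15, 13, 7 and 10. PFC libraries were built with another kit than those of the other brain regions, so that kit and brain region cannot be told apart.

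H3K27ac is an acetyl mark on the tail of histone H3 that is laid down at active enhancers and promoters. Enhancers are stretches of DNA that bind transcription factors and raise transcription from promoters that can lie far away along the chromosome. In general, enhancer activity differs more between cell types than promoter activity does, and distal regions marked in several neuronal populations are commonly thought of as elements that serve functions common to neurons.

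Libraries differed in depth. Their peak lists held 10811 to 143527 peaks (median 62637), and 11 to 3759 of the 3762 shared distal regions had a peak in a library (median 3286, or 87.3%). The library with 11 was PFC MOR-SAL male 13-1, whose list of 11306 peaks touched 98 of all 13788 regions, against at least 2262 shared distal regions with a peak in every other PFC library and at least 1236 in any other library. Depth also differed between the groups compared. Mean peak numbers in MOR-LPS, SAL-LPS, MOR-SAL and SAL-SAL libraries were 76526, 49653, 52875 and 52154 in hypothalamus and 70836, 95776, 70591 and 67875 in PFC. They were 63756, 58741, 68623 and 96848 in hippocampus and 65739, 53490, 43372 and 57034 in striatum. One PFC list of 4371 peaks and a hippocampus list identical to that of another animal were left out, and the PFC library labelled MOR-LPS female 12-2 holds peaks named for animal 12-0 and was used under its label. Marker genes were taken as marked when 1 of a library's 10000 strongest peaks lay within 1 kb of their TSS. The neuronal marker Rbfox3, the gene for NeuN, was marked in 43.9%, 71.4%, 81.8% and 53.3% of hypothalamus, PFC, hippocampus and striatum libraries, the microglial marker Cx3cr1 in none. In hypothalamus the neuron markers ran from Map2, marked in 92.7% of libraries, to Slc32a1, in 0%. The microglial markers P2ry12 and Aif1 were each marked in 2.27% of hippocampus libraries. Of the astrocyte markers, Gfap, Aqp4, Aldh1l1 and Sox9 were marked in no library, but Slc1a2, a glutamate transporter gene, was marked in 34.1%, 14.3%, 63.6% and 13.3% and Aldoc in 24.4%, 4.76%, 2.27% and 4.44% of the libraries of these brain regions. Drd1, a dopamine receptor gene typical of the striatum, was marked in 29 of 42 PFC libraries and 14 of 45 striatum libraries. Of the other striatal markers, Adora2a was marked in 16.7% of PFC against 4.44% of striatum libraries, and Drd2 in 4.76% against 0%. Ppp1r1b went the other way, with 42.9% against 46.7%. Tbr1, a cortical transcription factor gene, was marked in no striatum library. Its shares were 7.32%, 50% and 56.8% where libraries came from hypothalamus, PFC and hippocampus. The hypothalamic peptide genes Avp and Oxt were marked in no hypothalamus library. Hcrt, another such gene, was marked in 12 of 41 hypothalamus, 1 of 42 PFC, 6 of 44 hippocampus and 3 of 45 striatum libraries. Agrp was marked in 0 of 41 hypothalamus but 8 of 42 PFC libraries, and Nkx2-1 in 0 of 41 hypothalamus libraries. Oligodendrocyte markers, with 12 genes on the list, were marked unevenly: on average 14.5% of them in MOR-LPS libraries, 4.79% in SAL-LPS, 4.49% in MOR-SAL and 9.46% in SAL-SAL libraries, and 12% in female against 4.38% in male libraries. A bulk library cannot tell more nuclei of a type from more mark per nucleus.

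The sequences of a few of these regions are shown first, since the results below return to them. Each line gives 200 bases at the median summit of the region's peaks, on the + strand of mm10 (GRCm38.p6), with matches to any of 25 searched transcription factor motifs in capitals, on either strand. The first group holds members that ranked near the top in all 4 brain regions.
1700001O22Rik region, chr2:30718710-30718909, STAT motif TTCNNNGAA in capitals: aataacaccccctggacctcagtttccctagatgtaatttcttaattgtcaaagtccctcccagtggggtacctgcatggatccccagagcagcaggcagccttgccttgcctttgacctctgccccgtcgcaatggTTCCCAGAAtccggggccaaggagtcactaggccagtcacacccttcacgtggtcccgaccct
Ces5a region, chr8:93570094-93570293, MEF2 motif in capitals: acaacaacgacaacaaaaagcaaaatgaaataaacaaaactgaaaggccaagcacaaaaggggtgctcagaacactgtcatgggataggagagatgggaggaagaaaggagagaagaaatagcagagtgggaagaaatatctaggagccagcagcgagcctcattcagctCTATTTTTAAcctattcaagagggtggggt
Prss52 region, chr14:64139681-64139880, ETS motif CCGGAAGT and the NEUROD-type E-box CATCTG (here on the other strand) in capitals: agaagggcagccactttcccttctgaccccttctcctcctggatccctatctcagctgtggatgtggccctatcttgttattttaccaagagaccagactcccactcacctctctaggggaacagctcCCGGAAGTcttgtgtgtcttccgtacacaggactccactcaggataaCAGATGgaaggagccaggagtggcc

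The second group holds members whose rank differed most clearly between MOR-LPS and the groups it was compared with.
Ada region, chr2:163722643-163722842, NFI motif TTGGCA on both strands in capitals: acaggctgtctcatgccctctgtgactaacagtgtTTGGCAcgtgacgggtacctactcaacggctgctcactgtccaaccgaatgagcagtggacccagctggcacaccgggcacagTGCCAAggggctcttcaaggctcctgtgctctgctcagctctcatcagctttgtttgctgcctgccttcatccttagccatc
Galnt2 region, chr8:124260627-124260826, SP/KLF motif GGGCGGG, TEAD motif GGAATG and SOX motif CATTGT in capitals, the first 2 on the other strand: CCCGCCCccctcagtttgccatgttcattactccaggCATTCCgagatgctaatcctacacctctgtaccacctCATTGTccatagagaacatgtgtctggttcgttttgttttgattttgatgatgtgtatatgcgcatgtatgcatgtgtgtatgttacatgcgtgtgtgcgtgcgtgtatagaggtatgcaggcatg
Ksr1 region, chr11:79095443-79095642, the NEUROD-type E-box in capitals: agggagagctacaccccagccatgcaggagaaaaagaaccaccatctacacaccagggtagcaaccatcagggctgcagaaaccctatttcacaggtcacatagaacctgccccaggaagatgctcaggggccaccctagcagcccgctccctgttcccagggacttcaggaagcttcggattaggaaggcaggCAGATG
Ifitm7 region, chr16:14056612-14056811, homeodomain motif TAATTA in capitals: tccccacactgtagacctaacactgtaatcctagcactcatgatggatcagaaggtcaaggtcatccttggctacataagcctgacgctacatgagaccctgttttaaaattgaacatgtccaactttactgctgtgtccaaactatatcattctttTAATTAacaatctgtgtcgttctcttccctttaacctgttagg

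Regions are called by the protein-coding gene with the nearest TSS within 100 kb, which need not be the gene they act on. In the same windows the Lrrc74a, Dennd2a and Ajap1 regions, described below, held none of the searched letters, which says only that these letters were absent there.

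Over all members, motif content was close to that of the other distal regions. In 300 bases at the summit, the NEUROD-type E-box CATCTG was found in 26.5% of shared distal regions against 25.1% of other distal regions and 18.8% of all promoter regions. The TCF4-type E-box CACCTG gave 19.9% against 20.4% and 21.8%, the TEAD motif GGAATG 17.6% against 17.4% and 14%, and the NFI motif TTGGCA 17% against 16.8% and 13.6%. The AP-1 motif TGANTCA was found in 10.4% of shared distal regions against 10.7% of other distal regions and 6.69% of promoters, the RFX motif GTTGCC in 12.1% against 10.9% and 11.5%, and the homeodomain motif TAATTA in 6.33% against 6.99% and 3.67%. Of the 25 motifs, 12 had a higher share in the shared distal than in the other distal regions, none of them with 95% binomial intervals that lay apart. Of the others, 2 had intervals that only just lay apart. The SOX motif CATTGT was found in 14% (12.9% to 15.2%) of shared distal against 16.2% (15.2% to 17.2%) of other distal regions and 9.54% of promoters. The FOX motif TGTTTAC was found in 3.59% (3.02% to 4.23%) of shared distal against 4.81% (4.26% to 5.42%) of other distal regions and 3.02% of promoters, but in windows at the midpoint of the region in 4.65% against 4.74%. Neighbouring regions can share sequence, so the intervals cover counting error only. The GC content of these windows had a median of 49.7% in shared distal regions, 48.7% in other distal regions and 55% in promoters, and the ratio of observed to expected CpG a median of 0.226, against 0.212 and 0.503. Repeats covered a median of 7.67% of the window in both distal groups.

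Shared distal regions were longer than the other distal regions, and a longer region has more room for an overlap, which the rule used. Their median length was 4387.5 bp (quartiles 3338.2 and 6091 bp; range 1214 to 36886 bp), against 3625 bp in other distal regions, and together they covered 19.5 Mb. The median share of a member covered by regions of another brain region was 94.8% in PFC, 100% in hippocampus and 98.8% in striatum. Only 6 members shared under 100 bp with 1 of the other lists, the least being 17 bp. Introns held 2429 members (64.6%, against 65.6% of other distal regions), intergenic DNA 1163 (30.9%, against 30.8%) and exons 170 (4.52%, against 3.61%). The nearest protein-coding TSS lay at a median of 33.1 kb, against 38.5 kb for other distal regions, and 784 members (20.8%, against 16.6%) had one within 10 kb. No protein-coding TSS lay within 100 kb of 693 members (18.4%, against 23.2%). A start site of a gene that does not code for protein lay within 1 kb of 485 members (12.9%, against 8.81%), among them 159 of lincRNA, 101 of antisense and 42 of miRNA genes. Chromosome X carried 12 members (0.319%, against 0.35% of other distal regions).

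The members were spread over many genes and gathered at some of them. In all, 3069 of them were assigned to 1728 genes, of which 1119 had a single member, and the 91 genes with 5 or more held 680. Myt1l, a transcription factor gene of the neuronal lineage, and Ttc7b, whose product belongs to a complex that places phosphatidylinositol 4-kinase at the membrane, had 20 each. At Myt1l these 20 spanned 364 kb and covered 123 kb of it, 19 of them in introns, and only 1 other distal region was assigned to the gene. Ank3, coding for the ankyrin that organizes the axon initial segment, had 19 shared against 11 other distal regions, and Kcnma1, a calcium-activated potassium channel gene, 16 against 7. Anks1b, coding for a synaptic scaffold protein, had 18 against 1 and Msra, a methionine sulfoxide reductase gene, 13 against 0. Cstad, Dclk1, Nav2, Rbfox3, Slc24a2 and Trio had 12 each, with 9 other distal regions at Nav2 and none at Slc24a2. Counted by the gene body they lay in, Myt1l held 31 members, Msra 26, Anks1b 22 and Ptprn2 22, against 3, 2, 2 and 14 other distal regions.

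Signal was compared as a rank. Within each library all 13788 hypothalamus regions were ordered by the strongest −log10 p of the peaks overlapping them, and the order was scaled to run to 100, the strongest, with regions lacking a peak tied at the bottom. A rank is a place in the order of a library and not an amount of the mark. Only regions of the hypothalamus list were ranked. A member's rank in another brain region thus also depends on how many other regions of that list lacked a strong peak there. The mean rank of a shared distal region over the libraries of a brain region had a median of 51.8 in hypothalamus (quartiles 40.6 and 65.8), 60.9 in PFC (47.7 and 75.6), 63.9 in hippocampus (51.9 and 76.3) and 60.2 in striatum (46.8 and 73). Other distal regions had medians of 41.4, 28.5, 33 and 35.5, and shared promoters 60.6, 74.1, 65.3 and 65.4. The median fold enrichment of the peaks in members was 5.45 in hypothalamus, 7.13 in PFC, 6.12 in hippocampus and 5.37 in striatum. A member had a peak in a median of 80.5%, 90.5%, 88.6% and 86.7% of the libraries of these brain regions, against 68.3%, 50%, 52.3% and 51.1% for an other distal region. Every library of a brain region had a peak in 160 members in hypothalamus, 6 in PFC, 211 in hippocampus and 248 in striatum. Without the library 13-1 the PFC number was 1077 and the PFC median rank 61.2.

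**Figure D1:**
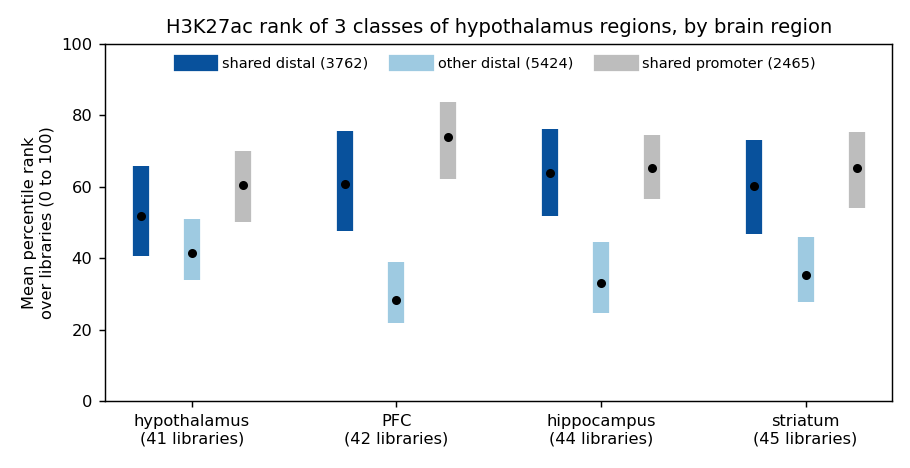
Median (point) and quartiles (bar) of the mean percentile rank of each region, by brain region, for the 3762 shared distal, 5424 other distal and 2465 shared promoter regions. Shared distal regions had medians of 51.8 to 63.9, above other distal regions (28.5 to 41.4) in each brain region and below shared promoters (60.6 to 74.1).

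The 1 kb threshold cut through a continuum of distances. Just inside it stood the regions near Zfp52, 1022 bp from the TSS with mean ranks of 73.7, 79.7, 68.3 and 75.7 in hypothalamus, PFC, hippocampus and striatum, and near Arhgef28, at 1047 bp with 48.3, 49.5, 71.5 and 40.2. Just outside it stood those near Myt1l, at 984 bp with 31.8, 41.9, 41.9 and 40.7, and near Grm7, at 960 bp with 74.2, 77.4, 74.5 and 81.7.

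Few members were among the strongest regions of all 4 brain regions. The lowest of a member's 4 mean ranks was above 50 for 1502 members (39.9%), against 1.77% of other distal regions, and above 80 for 113, against 0 of the other distal regions and 99 shared promoters. The hippocampus gave the highest mean rank for 1590 members, the PFC for 1031, the striatum for 728 and the hypothalamus for 413, and the hypothalamus gave the lowest for 1867. As only regions of the hypothalamus list were ranked, these counts cannot be told apart from that choice. Shared promoters were likewise lowest in hypothalamus for 1210 of 2465. The gap between the highest and the lowest of a member's 4 mean ranks had a median of 21.5 rank points (quartiles 14.4 and 30). Across the 3762 members, mean ranks of PFC and striatum had a Spearman correlation of 0.84, those of hypothalamus and striatum 0.63, of PFC and hippocampus 0.56, of hypothalamus and PFC 0.52, of hypothalamus and hippocampus 0.48 and of hippocampus and striatum 0.46. Across the 5424 other distal regions the same pairs gave 0.73, 0.47, 0.41, 0.34, 0.28 and 0.22. These are correlations across regions, which are not independent replicates and share animals, peak caller and base composition.

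The member with the highest value of the lowest mean rank lay at chr2:30713626-30724981, 11356 bp of intergenic DNA 76.7 kb from 1700001O22Rik, with the start of the noncoding gene Gm14488 inside it. Its lowest, median and highest ranks were 82.4, 98 and 100 over the 41 hypothalamus libraries, 49.6, 97.8 and 99.8 over the 42 PFC libraries, 82.1, 98.4 and 99.9 over the 44 hippocampus libraries and 85.2, 97.1 and 99.8 over the 45 striatum libraries. The PFC value of 49.6 is the tied rank of the library 13-1, without which the lowest was 87. It held 1 of the 10000 strongest peaks in 171 of 172 libraries, and the median fold enrichment of its peaks was 8.99, 15.3, 10.1 and 8.78. Its sequence is the first of those printed above.

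The longest member, 36886 bp at chr14:64131584-64168469, lay in an intron of Msra, 27.3 kb from Prss52, and had ranks of 71, 97 and 99.9 (lowest, median and highest) in hypothalamus and 76.5, 97.7 and 100 in striatum. Near Cstad, a region of 12336 bp (chr2:30649003-30661338) had 62.6, 98.2 and 100 in hypothalamus and 89, 99 and 99.9 in hippocampus. Others of the 10 highest lay near Ces5a (chr8:93566218-93575037), Lrrc74a (chr12:86797708-86802845), Irf2bp2 and Dcstamp, and in a Myt1l intron (chr12:29864714-29880325, 15612 bp). Spread between libraries was wider for the lower of these, with a lowest rank of 37.3 in hippocampus near Irf2bp2 and of 33.2 in hypothalamus near Dcstamp. Among members at noncoding starts, that of Gm33366 near Mef2c, a neuronal transcription factor gene (chr13:83725566-83743303, 17738 bp), had mean ranks of 88.5, 96.4, 93.9 and 95.5, and that of Mir99ahg, the host of a microRNA cluster (chr16:77234682-77241408), 93.1, 89.5, 93.5 and 92.1.

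**Figure D2:**
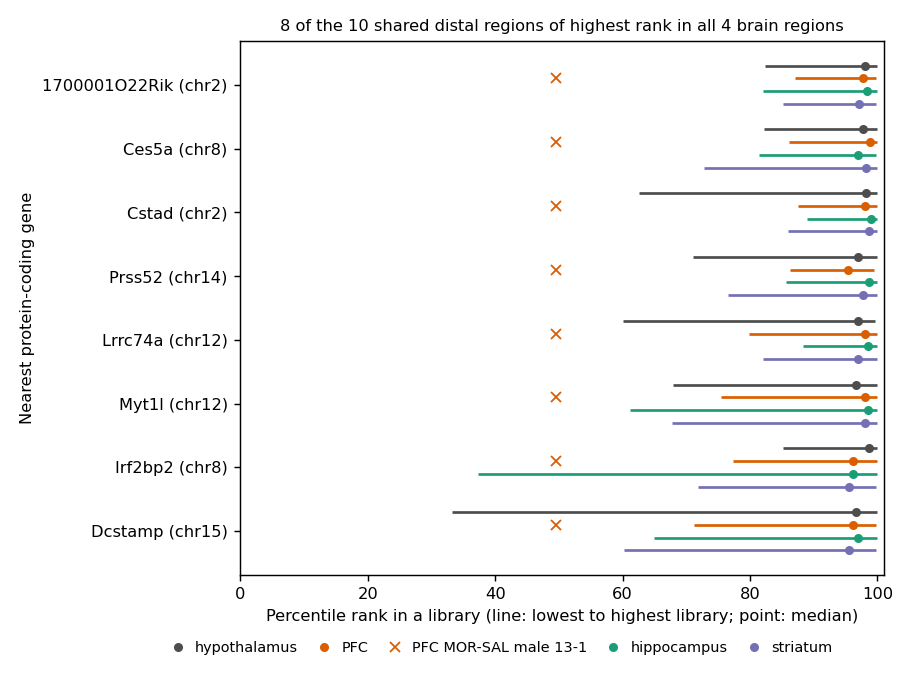
Percentile rank in a library of 8 of the 10 members with the highest value of the lowest of their 4 mean ranks; lines run from the lowest to the highest library, points mark medians, and crosses the library PFC MOR-SAL male 13-1, which the PFC lines leave out. The medians lie near the top in each brain region, and the lines reach down to 33.2 near Dcstamp and 37.3 near Irf2bp2.

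Sharing a region did not mean equal rank, and some members stood far higher or lower in 1 brain region. Hypothalamus stood highest above the mean of the other 3 in an intron of Hivep1, a zinc finger transcription factor gene (chr13:42100082-42106102), with 78.9 ± 19.5 against 50.2 ± 21.2 in PFC, 42.7 ± 22 in hippocampus and 41.7 ± 23.2 in striatum (mean rank ± SD over 41, 42, 44 and 45 libraries). Single hypothalamus libraries ran there from 28.6 to 99.1 (median 88). An intron of Pde11a, a cyclic nucleotide phosphodiesterase gene (chr2:76027627-76031210), had 90.1, 48, 75.9 and 58.9. Hypothalamus stood lowest in an intron of Arhgef10, a guanine nucleotide exchange factor gene (chr8:14966339-14970386), with 33.4 ± 27.1 against 93.5 ± 8.41, 92.7 ± 14.2 and 78.9 ± 23.1, and near Rhob, a small GTPase gene (chr12:8463516-8468351), with 36.9 against 86.2, 90.8 and 82.4.

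PFC stood out in an intron of Pcsk1, coding for a prohormone convertase (chr13:75112068-75115032), with 84.4 ± 12.8 against 36.8 in hypothalamus, 37.7 in hippocampus and 69.1 in striatum. It also did near Taf12, a TFIID subunit gene (chr4:132269196-132271071), with 92.7 against 46.4, 55 and 69.3. Near Paqr7, a membrane progestin receptor gene (chr4:134482172-134486528), PFC was lowest, with 44.8 against 83.2, 88.1 and 62.8.

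The widest single gap was in hippocampus. In an intron of Mtmr12, of the myotubularin family (chr15:12212291-12217873), its mean rank was 88.2 ± 15.2, against 27.8 ± 25.3 in hypothalamus, 46.6 ± 25.1 in PFC and 22.6 ± 14.1 in striatum, a gap of 55.9 rank points to the mean of the others. Near Rtn4r, the Nogo receptor gene (chr16:18150261-18157863), it was 91.3, against 33.4, 45.6 and 30.2, and in a Cdk14 intron 87.4, against 33, 48.1 and 24.6. Hippocampus was lowest near Rasd2, coding for a small GTPase known for its striatal expression (chr8:75194840-75201564), with 44.7 against 74.1 in hypothalamus, 75.1 in PFC and 86.7 in striatum. Striatum was highest above the others in an intron of Cacnb4, a calcium channel subunit gene (chr2:52508208-52512168), with 80.9 ± 18.7 against 42.5, 65.8 and 37. It was lowest near Pafah2 (chr4:134429228-134433550), with 28.7 against 60.5, 56.9 and 90.1, and near Gabbr2, a GABA-B receptor subunit gene (chr4:47009459-47013808), with 28.8 against 57.1, 57.3 and 81.6. These members were picked for the pattern, so no test is given.

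**Figure D3:**
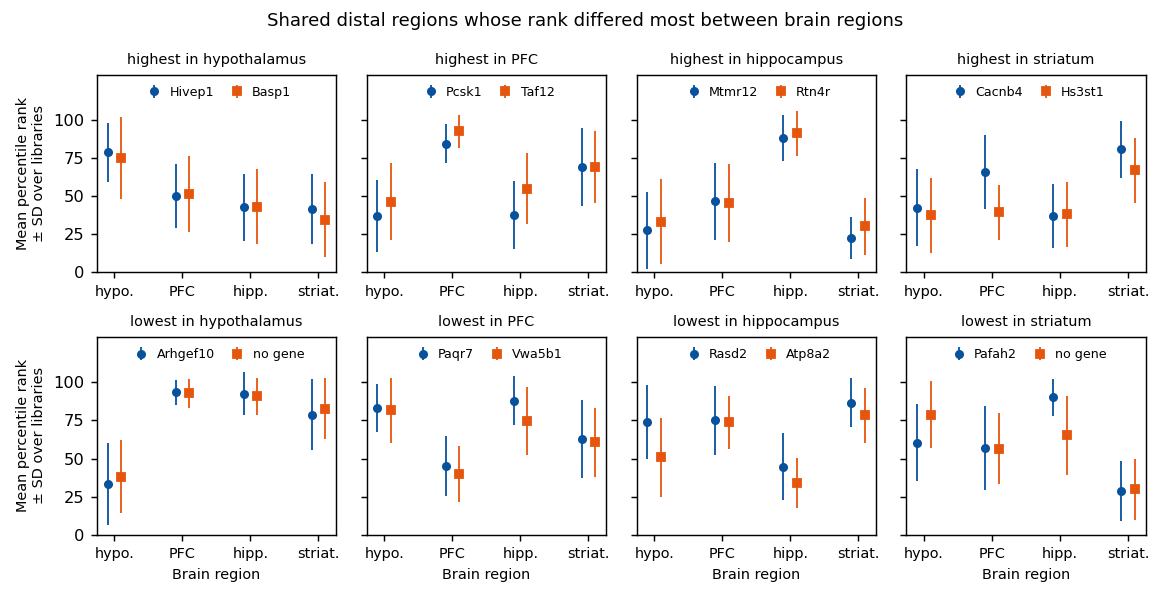
Mean percentile rank ± SD over libraries of members with the largest gap between 1 brain region and the mean of the other 3 (highest and lowest 2 for each brain region; 41 hypothalamus, 42 PFC, 44 hippocampus and 45 striatum libraries). The gap of Mtmr12 in hippocampus was 55.9 rank points, and most error bars of the low brain regions span over 20 rank points to each side.

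Within a region, the strongest point of the signal was not always at the same place. The median summits of the 4 brain regions lay within a median of 477 bp of each other (quartiles 222 and 934 bp), or 10.9% of a member's length, against 484 bp in other distal regions and 339 bp in shared promoters. In 848 members (22.5%) the 4 lay within 200 bp. Between libraries of 1 brain region the interquartile range of summits had a median of 914 bp in hypothalamus, 653 bp in PFC, 946 bp in hippocampus and 817 bp in striatum. The median width of the strongest peak in a member was 524, 746, 711 and 729 bp, against 463, 395, 425 and 523 bp in other distal regions.

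The treatment comparisons used limma on the ranks, with sex as a term, across all 13788 regions, with 2-sided p-values adjusted by the Benjamini-Hochberg method and a region called under 0.05. A fit over all 172 libraries, with the animal as a block, gave the mean of the 4 brain regions' differences in rank, and separate fits gave each brain region. Since members chosen as common to 4 brain regions had a chance to move in all of them, the mean is given first. "Rose" and "fell" are used only of members that were also called when every list was shortened to its strongest peaks at the length of the shortest list, and "ranked higher" or "lower" of the other called ones. MOR-LPS was compared with SAL-LPS and with MOR-SAL, and both comparisons share the MOR-LPS libraries. Per the study, morphine and saline mice came from different litters, with several mice per litter. Litter and morphine exposure thus cannot be told apart where MOR is compared with SAL.

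In MOR-LPS against SAL-LPS over the 4 brain regions, 690 members (18.3%) were called, against 17.6% of all regions tested and 20.9% of other distal regions, a share near the background. Of them 307 (8.16%) ranked higher and 383 (10.2%) lower, where 9.87% and 7.77% of all regions did. In lists of equal length 194 of them rose and 157 fell, where 4.98% and 2.29% of all regions did. The median difference was −2.72 rank points over the members (quartiles −7.73 and 3.63), −0.455 over all regions, −1.36 over other distal regions and 1.2 over shared promoters. Of the 307 higher members, 246 were higher in each of the 4 brain regions, with median differences of 25.6 rank points in hypothalamus, 12.2 in PFC, 9.36 in hippocampus and 19.2 in striatum. Of the 383 lower members, 325 were lower in each, with −18.3, −10.7, −9.92 and −17.5. The members were called on the mean of these 4 differences, so that agreement in sign and large differences follow in part from the choice. Oligodendrocyte markers moved with this comparison (14.5% of them in MOR-LPS, 4.79% in SAL-LPS libraries; 0% to 100% and 0% to 41.7% in single libraries, none marked in 25 of 49 and 28 of 47), and their part in the result was not tested. With marker shares as terms 161 members were called, and without the 15 libraries of over 20% of these markers, 9 of them MOR-LPS, 197. Leaving out 1 animal gave 370 (without 15-3) to 895.

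**Figure D4:**
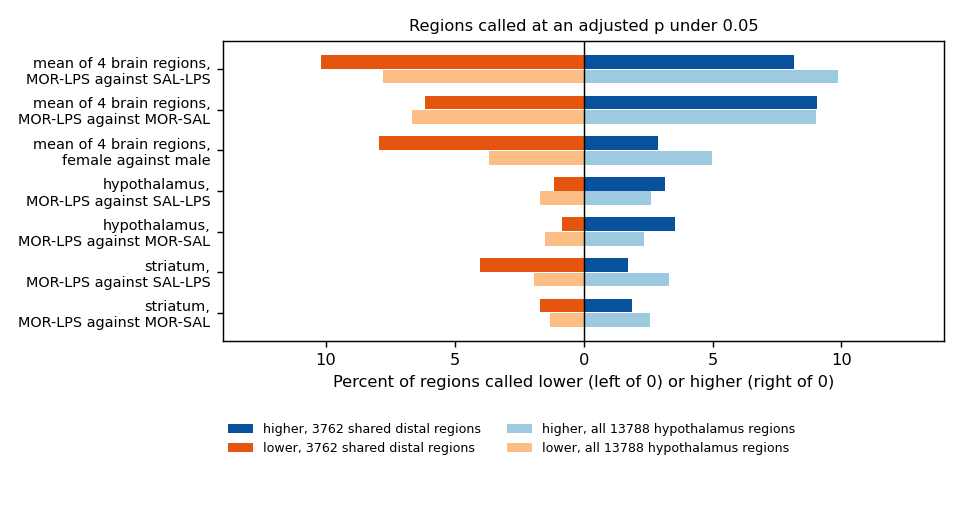
Percentage of the 3762 shared distal regions (dark) and of all 13788 hypothalamus regions (light) called higher, right of 0, or lower, left of 0, in the 7 comparisons with most calls. In MOR-LPS against SAL-LPS over the 4 brain regions, 8.16% of the members were called higher and 10.2% lower, against 9.87% and 7.77% of all regions.

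The smallest p belonged to an intron of Dennd2a, a Rab exchange factor gene (chr6:39527221-39530684, 27.2 kb from the TSS). Its ranks were 11.5, 69.5 and 99.4 (lowest, median and highest) in the 49 MOR-LPS libraries, against 6.15, 37.3 and 99 in the 47 SAL-LPS libraries, with wide overlap and 39 of 49 above the SAL-LPS median. It rose by 28.1 ± 4.84 rank points (SE; limma adjusted p = 3.63e-05), with 48.1 in hypothalamus, 17.3 in PFC, 21.9 in hippocampus and 27.3 in striatum. With marker terms its adjusted p was 0.00214 and without the 15 libraries 0.000765.

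Near Ada, the adenosine deaminase gene, the region printed above (chr2:163721100-163724497, in an exon of a Pkig transcript, 25.7 kb from the TSS) had 23.3, 65.7 and 99.6 in MOR-LPS against 5.14, 34.9 and 88.5 in SAL-LPS libraries. It rose by 26.2 ± 4.68 rank points (limma adjusted p = 4.87e-05), again with overlapping groups and 39 of 49 above the SAL-LPS median. By brain region the difference was 47.9 in hypothalamus, 18 in PFC, 9.85 in hippocampus and 28.7 in striatum. Zbtb20, a zinc finger transcription factor gene, had 2 members in introns that rose, 1 named for Tigit (chr16:43589452-43594338, +25.3 ± 4.72, limma adjusted p = 7.91e-05) and 1 for itself (chr16:42912862-42917192, +22.5 ± 4.56, adjusted p = 0.000277). An intron of Nfia, a nuclear factor I gene, rose by 26.5 ± 5.03 (chr4:97792558-97797921, adjusted p = 9.47e-05), and 42 of 49 MOR-LPS libraries lay above the SAL-LPS median. Near Fth1, the ferritin heavy chain gene (chr19:9953598-9958029), the difference of 25.5 ± 5.08 (adjusted p = 0.000219) was 48.9 in hypothalamus and 1.29 in hippocampus, while near Siah1a, a ubiquitin ligase gene, it ran from 21.2 to 29.2 over the 4. Members near Gna12, a G protein subunit gene, and Wdr20 rose by 22.5 and 23.8 rank points.

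Among the members that fell, the region named for Ifitm7, of a family of interferon-induced membrane proteins, came first (chr16:14054915-14058986, in an intron of 2900011O08Rik, 68.1 kb from the TSS). Its ranks were 8.68, 39.4 and 98.9 in MOR-LPS against 13.9, 79.5 and 97.4 in SAL-LPS libraries, with 44 of 49 below the SAL-LPS median although the ranges overlap. It fell by 27.5 ± 4.81 rank points (limma adjusted p = 3.63e-05), with −22 in hypothalamus, −11.3 in PFC, −31.9 in hippocampus and −40.4 in striatum. Near Npas4, a transcription factor gene switched on by neuronal activity (chr19:4992647-4998335, 2.33 kb from the TSS), ranks were 4.69, 81.2 and 99.4 in MOR-LPS against 37.3, 91.9 and 99.6 in SAL-LPS libraries. It fell by 18.7 ± 3.81 (adjusted p = 0.000291), with −35.7 in hypothalamus and −2.87 in PFC. A region with no protein-coding TSS within 100 kb (chr10:109597129-109604251) fell by 26.4 ± 4.8 (adjusted p = 6.15e-05). Near Rgs4, which codes for an inhibitor of G protein signalling (chr1:169829227-169835411), the fall was 20.5 ± 4.35 (adjusted p = 0.000463, 37 of 49 below), and in introns of Brinp1, Astn1 and Gabrb1, a GABA-A receptor subunit gene, 20.3, 22.6 and 22.2 rank points.

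**Figure D5:**
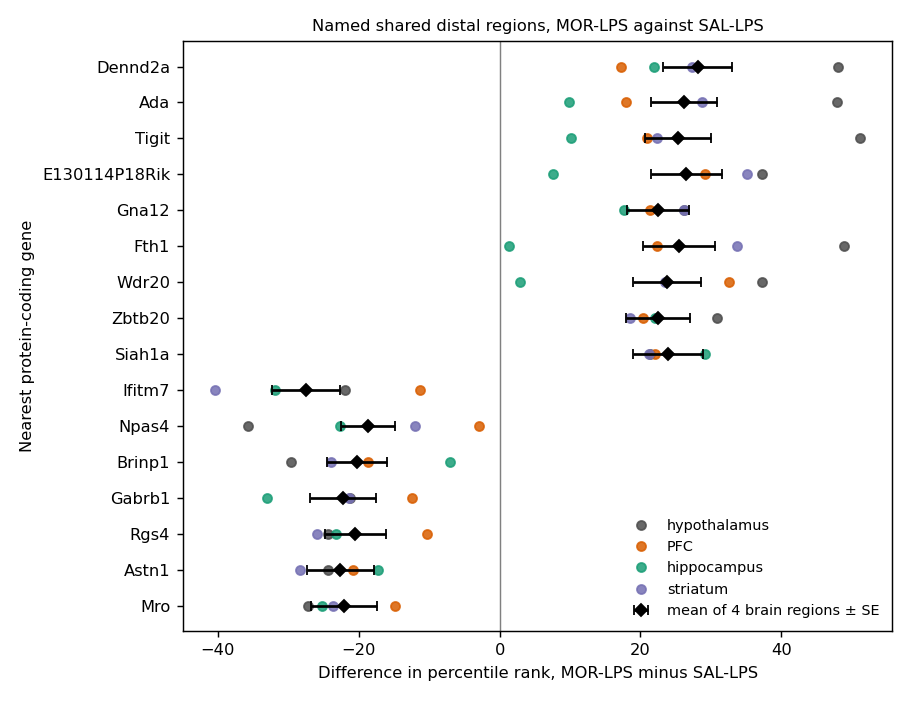
Difference in percentile rank, MOR-LPS minus SAL-LPS, of 16 members with the smallest p that have a protein-coding TSS within 100 kb: circles are the 4 brain regions and diamonds their mean ± SE. Each point lies on the side of its mean, which follows in part from choosing the members by that mean. The PFC and hippocampus values are often the nearest to 0, as for Npas4 (−2.87 in PFC) and Fth1 (1.29 in hippocampus).

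In MOR-LPS against MOR-SAL over the 4 brain regions, 571 members (15.2%) were called against 15.7% of all regions and 19.2% of other distal regions, again near the background. Of them 340 (9.04%, against 9.02%) ranked higher and 231 (6.14%, against 6.68%) lower, and 174 rose and 89 fell, where 4% and 1.88% of all regions did. The higher ones had median differences of 25.2 in hypothalamus, 12 in PFC, 8.09 in hippocampus and 22.7 in striatum, and 269 were higher in each. The lower ones had −17.8, −9.58, −9.99 and −22.7, and 182 were lower in each. These members too were called on the mean of the 4 differences, from which agreement in sign follows in part. With marker terms 207 members were called, and without the 15 libraries of high oligodendrocyte share 199. Leaving out 1 animal gave 348 (without 15-3) to 713.

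The Ada region came first here too, with 23.3, 65.7 and 99.6 in MOR-LPS against 5.55, 21.9 and 96.1 in MOR-SAL libraries. All 49 MOR-LPS libraries lay above the MOR-SAL median, although the ranges overlap, and it rose by 29.7 ± 4.88 rank points (limma adjusted p = 2.85e-05). In an intron of Galnt2, coding for an enzyme that starts O-linked glycosylation (chr8:124255793-124266875), ranks were 21.5, 64 and 98.1 in MOR-LPS against 7.12, 28.9 and 87.2 in MOR-SAL libraries, a rise of 28.5 ± 5.03 (adjusted p = 7.44e-05). In an intron of Ksr1, a scaffold of the MAP kinase cascade (chr11:79092261-79101180), they were 10.1, 72.3 and 99.3 against 5.73, 49.1 and 93.1, a rise of 26.4 ± 4.76 (adjusted p = 9.53e-05). Introns of Itsn2, an endocytosis scaffold, Eif4g3, a translation initiation factor, Fam171a1 and Gramd1b rose by 25.9, 25.7, 26.3 and 24.3 rank points, the Eif4g3 one by 16.1 to 33.9 over the brain regions. Near Ddit4, a stress-induced inhibitor of mTORC1 (chr10:59955189-59959454), the rise was 23.1 ± 4.55 (adjusted p = 0.000231), and 45 of 49 lay above the MOR-SAL median. The member near Pdk4, a kinase of pyruvate metabolism, ranked 22.5 rank points higher (adjusted p = 0.000223, 0.0955 in lists of equal length).

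Falls were led by an intron of Dst, a cytoskeletal linker gene (chr1:33945469-33948312), with 10.5, 53.1 and 95.2 in MOR-LPS against 15.5, 74.7 and 96.3 in MOR-SAL libraries and a difference of −23 ± 4.76 (limma adjusted p = 0.000425). An intron of Trappc9, of a vesicle tethering complex (chr15:72850970-72853117), fell by 23.8 ± 4.96 (adjusted p = 0.000443), with 43 of 49 below the MOR-SAL median. Members near Adgrb1, an adhesion receptor gene, Ctnna2, the neuronal alpha-catenin gene, and Cstad (chr2:30685089-30689462) fell by 22.6, 22.3 and 19.4 rank points. All these groups overlapped.

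Morphine without LPS and LPS without morphine gave no calls over the 4 brain regions. In MOR-SAL against SAL-SAL, limma called 0 members and 0% of all regions, with 182 members (4.84%) at an unadjusted p under 0.05 against 5.04% of all regions, and 0 also in lists of equal length. In SAL-LPS against SAL-SAL it called 0 members and 0% of all regions, with 262 members (6.96%) at that level against 7.08%, and 0 in lists of equal length. The members of smallest p included a Ptprn2 intron (chr12:117164476-117170926), with 17, 66.5 and 95.8 in MOR-SAL against 10.3, 36.1 and 93.7 in SAL-SAL libraries and +18.2 ± 5.31 (limma adjusted p = 0.746), and a region near Sox8 with −18.9 ± 5.32 (adjusted p = 0.644). For LPS they were near Cadm3, a cell adhesion gene, with 28.9, 90.8 and 99.9 in SAL-LPS against 22.1, 77.6 and 99.5 in SAL-SAL libraries and +13.9 ± 3.87 (adjusted p = 0.4), and near Chd2, a chromatin remodeller gene, with −19.3 ± 4.81 (adjusted p = 0.289). A p that misses the threshold does not show that the groups are alike.

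On its own, the hypothalamus gave calls in 3 of the 4 comparisons. In MOR-LPS against SAL-LPS, with 10 and 11 libraries, 162 members (4.31%) were called, the same share as of all regions (4.31%). Of them 118 (3.14%, against 2.63%) ranked higher and 44 (1.17%, against 1.68%) lower, and 44 rose and 13 fell, where 0.791% and 0.384% of all regions did. Leaving out 1 library gave 53 called members (without MOR-LPS male 14-4) to 323 (without MOR-LPS male 13-2), and marker terms 27. In MOR-LPS against MOR-SAL, with 10 and 12 libraries, 164 members (4.36%, against 3.84% of all regions) were called, 133 (3.54%, against 2.33%) higher and 31 (0.824%, against 1.51%) lower, and 62 rose and 20 fell, where 1.06% and 0.515% of all regions did. Leaving out the same libraries gave 54 and 303, and marker terms 3. Oligodendrocyte markers averaged 8.33% in MOR-LPS, 3.79% in SAL-LPS, 3.47% in MOR-SAL and 8.33% in SAL-SAL hypothalamus libraries, thalamus markers 2.5%, 4.55%, 11.5% and 20.3%, and their part in these counts was not tested. The lane tags in peak names also differed, with lane 7 in 6 of 10 MOR-LPS, 9 of 11 SAL-LPS, 6 of 12 MOR-SAL and 7 of 8 SAL-SAL libraries. Among lane 7 libraries alone 19 members were called against SAL-LPS and 0 against MOR-SAL.

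The Zbtb20 intron named for Tigit had hypothalamus ranks of 10.1, 80.1 and 86.9 in MOR-LPS against 5.14, 13.2 and 49.9 in SAL-LPS libraries, with 9 of 10 above the SAL-LPS median, and rose by 51.2 ± 9.48 rank points (limma adjusted p = 0.00124). In an intron of Prex1, a Rac exchange factor gene (chr2:166661022-166666278), ranks were 51.5, 79.4 and 91.3 against 5.14, 21.1 and 53.8, so that the groups overlapped only at their edges, and it rose by 50.2 ± 10.8 (adjusted p = 0.00353). A region at Zeb2, a zinc finger repressor gene, rose by 49.3 (chr2:45102950-45107028) and the Ada region by 47.9, with all 10 MOR-LPS libraries above the SAL-LPS median. A region with no protein-coding TSS within 100 kb (chr12:109745749-109751668) had 4.69, 35 and 97.4 in MOR-LPS against 70.4, 92.1 and 98.5 in SAL-LPS libraries and fell by 46.7 ± 9.54 (adjusted p = 0.00323). Members near Rock2, a kinase gene of the actin cytoskeleton, and in an intron of Shank2, a postsynaptic scaffold gene (chr7:144130469-144134108), fell by 30.6 and 38.2 rank points (adjusted p = 0.0086 and 0.0103).

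Against MOR-SAL, an intron of Nfix, a nuclear factor I gene (chr8:84789994-84795902), had 5.94, 86.1 and 98.6 in MOR-LPS against 5.55, 12.3 and 58.7 in MOR-SAL hypothalamus libraries. It rose by 52.9 ± 10 rank points (limma adjusted p = 0.0014), with 8 of 10 above the MOR-SAL median. The region near Zfp706 rose by 49.8 and that of Zeb2 by 45.5. The region near Hsd17b12, a steroid and fatty acid enzyme gene, fell by 44.7 ± 10 (adjusted p = 0.00543), with all 10 MOR-LPS libraries below the MOR-SAL median, as they were in an intron of Prkcb, a protein kinase C gene, which fell by 43.8 (adjusted p = 0.00853).

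In SAL-LPS against SAL-SAL, 11 members (0.292%, against 0.305% of all regions) were called in the hypothalamus, 5 of them also in lists of equal length, where 0.109% of all regions were. A region at Abat, the gene of the enzyme that breaks down GABA, rose by 37.5 ± 9.71 rank points (limma adjusted p = 0.0412), and all 11 SAL-LPS libraries lay above the SAL-SAL median. Near Nr2f1, a nuclear receptor gene (chr13:78202620-78212093), ranks were 5.14, 31.9 and 87.8 in SAL-LPS against 75.9, 85.6 and 97.3 in SAL-SAL libraries, a fall of 49.2 ± 11.7 (adjusted p = 0.0309). Members near Tmx1 and Cdk5rap2 and a region at chr15:94011099-94014060 fell by 47.7, 45.5 and 53. Leaving out 1 library gave 1 to 28 called members, 28 without SAL-LPS female 10-0 or SAL-SAL male 3-2. In MOR-SAL against SAL-SAL, limma called 0 members and 0% of all regions, with 338 members (8.98%) at an unadjusted p under 0.05 against 8.04%, and 0 in lists of equal length. The member near Pck1, the gluconeogenesis enzyme gene, had 81.4, 88.8 and 98.5 in MOR-SAL against 33.8, 65.8 and 97.6 in SAL-SAL hypothalamus libraries and +25.8 ± 7.33 (adjusted p = 0.209).

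The striatum gave calls in the MOR-LPS comparisons, few of which were kept in lists of equal length. Against SAL-LPS, with 15 and 13 libraries, 216 members (5.74%, against 5.23% of all regions) were called, 65 (1.73%, against 3.32%) higher and 151 (4.01%, against 1.91%) lower, and 0 rose and 2 fell, where 0.0218% of all regions were called in both. The median difference was −6.12 over the members and −0.857 over all regions, and the mean rank of the members over a library was 57.7 on average over the MOR-LPS libraries, against 61.4 over the SAL-LPS libraries. Against MOR-SAL, with 15 and 7 libraries, 134 members (3.56%, against 3.86%) were called, 70 (1.86%, against 2.56%) higher and 64 (1.7%, against 1.3%) lower, and 2 rose and 4 fell, where 0.109% of all regions were called in both. Oligodendrocyte markers averaged 30% in MOR-LPS, 6.41% in SAL-LPS, 4.76% in MOR-SAL and 10% in SAL-SAL striatum libraries. Without the 7 striatum libraries of over 20%, 5 of them MOR-LPS, 0 members were called in both comparisons. Leaving out 1 library gave 24 (without MOR-LPS female 15-3) to 460 (without MOR-LPS female 12-2) against SAL-LPS and 13 (without MOR-SAL female 16-1) to 265 (without MOR-LPS female 12-2) against MOR-SAL.

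The Ifitm7 region printed above had striatum ranks of 19.2, 40.2 and 88 in MOR-LPS against 70.2, 90.5 and 96.9 in SAL-LPS libraries, all 15 below the SAL-LPS median, and fell by 40.4 ± 7.3 rank points (limma adjusted p = 0.00157). A region near Vwa5b1 (chr4:138535574-138541441) had 9.84, 40.3 and 88 against 39.5, 86.2 and 98.9 and fell by 44.4 ± 8.31 (adjusted p = 0.00157). Against MOR-SAL, with 83.1, 90 and 99.4, the Ifitm7 region fell by 43.6 ± 8.58 (adjusted p = 0.00389), and members near Bckdhb, a branched-chain amino acid enzyme gene, and Chd5, a neuronal chromatin remodeller gene, by 41.3 and 34.5. In this comparison the groups did not overlap for the members near Nell2 and Kcnk9. Both were picked for a small p, and the share of all regions with such groups is not given. The one near Nell2 (chr15:95074550-95077374) had 6.68, 19.2 and 38.4 in MOR-LPS against 42.3, 56.9 and 82.7 in MOR-SAL libraries (−41.1 ± 8.09, adjusted p = 0.00389, 0.0929 in lists of equal length). The one near Kcnk9, a potassium channel gene (chr15:72526649-72532730), had 4.66, 19.2 and 42.5 against 52, 66.2 and 90.1 (−47.3 ± 9.7, adjusted p = 0.00439, 0.154 in lists of equal length). Libraries with no peak there carry their tied rank, which depends on the length of the list.

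Calls in PFC and hippocampus were absent for members. In PFC, limma called 0 members and 0% of all regions in each of the 4 comparisons, with 513, 100, 210 and 292 members (13.6%, 2.66%, 5.58% and 7.76%, against 13.5%, 3.3%, 6.97% and 8.7% of all regions) at an unadjusted p under 0.05 for MOR-LPS against SAL-LPS, MOR-SAL against SAL-SAL, SAL-LPS against SAL-SAL and MOR-LPS against MOR-SAL, and 19 called in the first of them when peaks of −log10 q under 5 were left out. In hippocampus it called 0 members in each, with 342, 149, 451 and 273 (9.09%, 3.96%, 12% and 7.26%, against 8.22%, 4.67%, 16% and 6.67% of all regions) at an unadjusted p under 0.05, where 0%, 0.00725%, 0.0363% and 0.0145% of all regions were called, and 1 member in SAL-LPS against SAL-SAL in lists of equal length. The striatum comparisons of MOR-SAL and of SAL-LPS with SAL-SAL likewise gave 0 members, with 0.0363% and 0% of all regions called, 217 and 188 members (5.77% and 5%, against 6.67% and 5.5% of all regions) at an unadjusted p under 0.05, and 1 member each when fold enrichment was ranked.

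Whether the 4 brain regions differed in a comparison was tested with an F test on the interaction of the fit over all libraries. For MOR-LPS against SAL-LPS it called 5 members (0.133%, against 0.181% of all regions) and for MOR-SAL against SAL-SAL 3 (0.0797%, against 0.174%). For SAL-LPS against SAL-SAL it called 49 (1.3%, against 1.33%) and for MOR-LPS against MOR-SAL 6 (0.159%, against 0.174%). Each share was under that of all regions. In lists of equal length 0, 1, 8 and 0 of these members were called again. In MOR-LPS against SAL-LPS, the Prex1 intron differed by 50.2 ± 10.8 rank points in hypothalamus, −1.83 ± 6.44 in PFC, 1.24 ± 8.95 in hippocampus and −2.19 ± 6.79 in striatum (limma adjusted p = 0.00595, 0.0553 in lists of equal length).

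In SAL-LPS against SAL-SAL, a region near Klf10, a transcription factor gene (chr15:38383703-38385673), differed by 30.4 ± 11.7 in hypothalamus, 6.38 ± 7.3 in PFC, −19.8 ± 7.99 in hippocampus and −33.7 ± 9.74 in striatum (limma adjusted p = 0.00262, 0.0155 in lists of equal length). Mean ranks there were 74.1 in SAL-LPS and 45.2 in SAL-SAL hypothalamus libraries, but 38 in SAL-LPS and 72.9 in SAL-SAL striatum libraries. Near Sox7 (chr14:63921123-63924852) the difference was 42.2 ± 11.8 in hypothalamus and −20.4 in hippocampus (adjusted p = 0.0173), and in an intron of Trpm3, an ion channel gene (chr19:22914517-22917314), −40.2 ± 11.6 in hypothalamus and between −3.05 and 0.815 in the other 3 (adjusted p = 0.0149). Of the morphine members, that near Tmem173, the gene of the innate immune adaptor STING, had 24.8, −0.736, −18.5 and 13.8 in MOR-SAL against SAL-SAL (adjusted p = 0.0297).

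Members were also counted by lists of genes of known role, and each list is to be read against all regions over the 4 brain regions. Of these, 17.6% were called for MOR-LPS against SAL-LPS (9.87% higher, 7.77% lower). For MOR-LPS against MOR-SAL 15.7% were called (9.02% higher, 6.68% lower). Neuronal transcription factor genes, which set and keep neuronal identity, had 68 members at 17 of 36 genes. Against SAL-LPS 19 ranked higher and 9 lower (12 rose, 2 fell; median −0.089 rank points, all regions −0.455), and against MOR-SAL 17 and 3 (8 rose, 1 fell). In the hypothalamus 14 ranked higher and 1 lower against SAL-LPS, where 2.63% and 1.68% of all regions did, and 16 and 0 against MOR-SAL, where 2.33% and 1.51% did. Of the 68 members 9 lay at Tcf4, an E-box binding factor gene that the study named on these same samples. Without them 14 of 59 ranked higher and 9 lower against SAL-LPS (median −2.89) and 13 and 3 against MOR-SAL, and in the hypothalamus 12 and 1, and 12 and 0. A Zeb2 region (+22.7 ± 4.91, limma adjusted p = 0.000578) and an Nfia region (chr4:97867640-97875089, +22.7 ± 5.01, adjusted p = 0.000762) were among those that rose against SAL-LPS. Zeb2 had 7 members and Nfia 3. The same Nfia region rose by 24.2 ± 5.23 against MOR-SAL.

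Glucocorticoid receptor and induced genes, which answer to stress hormones, had 23 members at 9 of 21 genes, and 10 ranked higher and 0 lower against SAL-LPS (6 rose; median +10.1), 8 and 0 against MOR-SAL (3 rose; median +10.2). Tcf4 supplied 9 of the 23 and Nfkbia, also named by the study on these samples, 1, so the list is not independent evidence of its direction. Without both genes 5 of 13 ranked higher and 0 lower against SAL-LPS (3 rose; median +6.75), and 4 and 0 against MOR-SAL (2 rose; median +6.66). Errfi1, a feedback inhibitor of the EGF receptor, rose by 22.7 ± 4.98 against SAL-LPS (limma adjusted p = 0.000687) and by 23.4 ± 5.19 against MOR-SAL (adjusted p = 0.000867). A Tcf4 member, counted in this list and the previous one, rose by 20.5 ± 4.96 against SAL-LPS (adjusted p = 0.00203). Synapse scaffold and adhesion genes had 61 members at 17 of 27 genes, and 0 ranked higher and 10 lower against SAL-LPS (3 fell; median −5.68), 1 and 8 against MOR-SAL (1 rose, 5 fell). A member at Shank2, which had 3, fell by 22.6 ± 5 against SAL-LPS (limma adjusted p = 0.000777). A member at Trio, a guanine nucleotide exchange factor of the synapse with 12 members, fell by 18.3 ± 4.75 (adjusted p = 0.00405). Ion channel and glutamate receptor genes had 44 members, with 0 higher and 7 lower against SAL-LPS (3 fell) and 1 and 3 against MOR-SAL. Among those that fell against SAL-LPS was a member at Grin2a, by 18.2 ± 4.94 (limma adjusted p = 0.00588). Neuronal RNA-binding protein genes had 44, with 0 and 5 against SAL-LPS (1 fell) and 0 and 3 against MOR-SAL (1 fell). In the synapse, ion channel and RNA-binding lists the share of members called was under that of all regions in both comparisons. Oligodendrocyte markers moved with both comparisons, as given above, and their part in these lists was not tested.

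Members at genes of the opioid and immune systems were counted in the same way. Of 31 opioid system genes 5 had a member, 13 members in all. Against SAL-LPS 2 ranked higher and 1 lower, the latter near Rgs4, as above. A member at Gnao1, the Go alpha subunit gene, which had 8, differed by +13.1 ± 4.5 (limma adjusted p = 0.0301). Against MOR-SAL 4 and 1 did, and an intron of Adcy5, the main adenylyl cyclase of the striatum, rose by 20.3 ± 4.56 (adjusted p = 0.000973). Of 30 NF-kB and acute inflammation genes 2 had a member. That of Zfp36, whose product destabilizes cytokine mRNA, rose by 14.3 ± 4.77 against SAL-LPS (adjusted p = 0.0248) and by 20 ± 4.97 against MOR-SAL (adjusted p = 0.00309), and differed by 0.278 ± 5.07 in SAL-LPS against SAL-SAL (adjusted p = 0.998). Of 22 genes on the interferon response list only Irf2bpl, which the study named as an IRF-family regulator, had members, 7, none of them called. The other genes of the list had no member, so these 7 do not speak for them. Immediate early genes had 21 members at 11 of 32 genes, with 2 higher and 3 lower against SAL-LPS and 1 and 4 against MOR-SAL. Against SAL-LPS a member each at Klf9 and Btg2 rose. A member each at Npas4 and Egr1 fell, that at Egr1 by 15.8 ± 3.6 (limma adjusted p = 0.00102). Circadian genes had 6 members, and that of Nr1d1, a clock repressor, rose by 13 ± 3.02 against SAL-LPS (adjusted p = 0.0013). Lipid and insulin signalling genes had 13, and 1 at Ppara, a nuclear receptor of fatty acids, rose by 17.6 ± 4.25 (adjusted p = 0.00204). Genes that the study itself named had 34 members at 11 of 18 genes, with 7 higher and 1 lower against SAL-LPS and 6 and 0 against MOR-SAL, but the study chose them on these samples, and they are not independent evidence of a direction.

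Females were compared with males over the 4 brain regions, with 92 female and 80 male libraries. Most prefixes of the animal identifiers belong to a single sex, so that sex can hardly be told apart from what the prefix stands for. Of the members 407 (10.8%) were called against 8.63% of all regions and 8.94% of other distal regions, 108 (2.87%, against 4.98%) higher and 299 (7.95%, against 3.66%) lower in females. In lists of equal length 57 rose and 77 fell, where 2.22% and 0.834% of all regions did. The median difference was −2.63 rank points over the members and −0.325 over all regions. Oligodendrocyte markers averaged 12% in female and 4.38% in male libraries (21% and 5.56% in striatum), and without the 15 libraries of over 20% only 20 members were called. Their part in the result was not tested.

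An intron of Ajap1, an adherens junction gene (chr4:153423829-153427900), had 4.69, 33.8 and 87.5 in female against 5.94, 52.2 and 91.9 in male libraries, with overlap and 71 of 92 below the male median, and fell by 20.3 ± 3.47 rank points (limma adjusted p = 6.61e-05, 0.00448 without the 15 libraries). Introns of Rbfox2, a splicing factor gene, and Grin2b, an NMDA receptor subunit gene, fell by 18.1 ± 3.54 and 16.2 ± 3.36 (adjusted p = 0.000731 and 0.00127). An intron of Ncam1, the neural cell adhesion molecule gene, rose by 17.1 ± 3.7 (adjusted p = 0.00202, 0.0657 without the 15 libraries), and a region near Gm5148 (chr3:37766773-37771413) by 12.5 ± 2.72 (adjusted p = 0.00202, 0.0129 without them). Of the 61 members of the synapse list 0 ranked higher and 11 lower in females (5 fell), and of the 44 of the ion channel list 0 and 8 (2 fell). The 44 of the RNA-binding list gave 0 and 7. The 68 of the neuronal transcription factor list gave 5 and 8, and the 23 of the glucocorticoid list 2 and 0. Of all regions 4.98% ranked higher and 3.66% lower.

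Of the 12 members on chromosome X, 2 were called, both higher in females and both at the X inactivation centre, where noncoding RNAs govern the silencing of 1 X chromosome in female cells. The one that overlaps Ftx and Jpx (chrX:103562742-103565606) had 6.68, 75.5 and 99.5 in female against 5.55, 56.4 and 94.6 in male libraries and rose by 13.5 ± 3.56 rank points (limma adjusted p = 0.00965). Its mean ranks were 53.5 in female and 38 in male hypothalamus libraries, 79.7 and 70.9 in PFC, 64.2 and 49.6 in hippocampus and 71.6 and 54 in striatum, higher in females in each. The one in Jpx (chrX:103553983-103557534) ranked 12.9 ± 3.42 higher (adjusted p = 0.00975, 0.116 in lists of equal length).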

How the data were processed

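H3K27ac was profiled by MOWChIP-seq in 174 libraries of NeuN+ nuclei, 172 of which were used: a list of 4371 peaks and 1 list identical to another animal's were left out, and 32 input libraries play no part below. Per the labels, Trim Galore 0.6.7 served to trim the reads, Bowtie2 2.4.5 to map them (mm10), SAMtools 1.15.1 and bedtools to process alignments, and MACS2 2.2.7.1 to call the peaks of each library. For each peak the authors deposited its position, a −log10 p and a −log10 q against the local background, a fold enrichment (a ratio over that background) and a score derived by MACS2 from the q-value. The deposited consensus lists, made with DiffBind 3.10.1 from peaks present in many libraries, give positions only. No counts of reads were used, and a p of the peak caller depends on depth, so only ranks within a library were compared.

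Members were the hypothalamus consensus regions defined in the opening. TSS came from GENCODE M21 and sequences from GRCm38.p6. In each library the 13788 regions were ranked by the highest −log10 p of an overlapping peak, scaled to 100, with ties averaged. Ranks were fitted with limma 3.58.1 in R 4.3.3, per brain region (group and sex) and over all libraries (brain region by group, and sex, with the animal as block, correlation 0.0616). Tests were 2-sided and adjusted over all 13788 regions by the Benjamini-Hochberg method, and they were tested on simulated data. Samples were grouped by their labels. Each animal gave 1 library per brain region, 10 animals gave all 4, and p-values measure the spread between these animals and not between litters. Per the study, several mice per litter were used, exposure was assigned to dams, and litters were nested in exposure.

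The identifier prefix (18 values, 10 of morphine and 8 of saline mice) has no meaning given in the sources used here. No prefix occurs in both exposures, while some occur with both challenges of 1 exposure, and its correlation in the fits was 0.00132 or less. Most prefixes hold animals of a single sex, so that prefix and sex can hardly be told apart. Alternatives were lists of equal length, fold enrichment ranked, a −log10 q of at least 5, the number of peaks, marker shares or lane tags as terms, other blocks and libraries left out. Each motif share has a 95% binomial interval for counting error only.

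The members and the gene lists were chosen with earlier results of these data known. Named are the 10 members with the highest lowest mean rank, the genes with most members, up to 10 called members of smallest p per direction and comparison (3 where none was called), 2 to 4 per gene list, members that stand out in 1 brain region, those near a noncoding TSS or the 1 kb threshold, and called members on chromosome X. Only some of each are given (2 of the 10 highest are not reported here), and those on chromosome 18 mostly not.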

Additional observations from a re-analysis of the deposited data

Results flagged for a closer look

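In 7 of 21 sets of values (7 groups of 7 to 10 libraries, each with 3 measures of the shared distal regions), 1 library stood far from the others. Chance marks about 1 in 20 groups. In hypothalamus, MOR-LPS male 6-0 had a peak in 2383 members against 3045 to 3723 in the other MOR-LPS libraries, and SAL-SAL male 3-2 had a mean rank of the members of 62 against 49.3 to 53.3. In PFC, MOR-SAL male 13-1 had a mean rank of 49.8 against 58.1 to 65.4 and a peak in 11 members against 2762 to 3721. In hippocampus, MOR-LPS female 15-3 had a mean rank of 55.3 against 60.7 to 66.8. In striatum, SAL-SAL female 9-4 had a mean rank of 52.2 against 58.5 to 64.3, and SAL-SAL female 10-3 had a peak in 1661 members against 2845 to 3601.

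Members whose difference was not the same in the 4 brain regions, by limma's F test, numbered 5 in MOR-LPS against SAL-LPS, 3 in MOR-SAL against SAL-SAL, 49 in SAL-LPS against SAL-SAL and 6 in MOR-LPS against MOR-SAL, up to 10 of which are named for each. Their shares, given above, were under those of all regions. In MOR-LPS against SAL-LPS the adjusted p was 0.00595 near Prex1 and Tmco5, 0.0109 near Irf4, an immune transcription factor gene, 0.044 near Cdc40 and 0.0476 at chr10:97312017-97315136. The Irf4 member differed by 19 rank points in hypothalamus, −5.5 in PFC, 11.1 in hippocampus and −37.8 in striatum. In MOR-SAL against SAL-SAL it was 0.0281 near Rnf169, 0.0297 near Tmem173 and 0.0389 near Wdr5, a subunit gene of histone methyltransferase complexes, which differed by 28.9, 2.87, −27.4 and −24.7 rank points.

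In SAL-LPS against SAL-SAL the adjusted p was 0.00262 at chr15:94011099-94014060 and near Klf10, 0.0044 near Tmx1, 0.00894 at chr14:25183790-25188448, 0.0117 near Pptc7, 0.0149 near Nckap1 and Trpm3, 0.0151 near Nebl, 0.0173 near Sox7 and 0.0187 near Xkr8. The first of these differed by −53 rank points in hypothalamus, 8.2 in PFC, 24.8 in hippocampus and 9.81 in striatum. In MOR-LPS against MOR-SAL it was 0.0196 near Actbl2, 0.0246 near Usp54, 0.0313 near Fbln2 and near Prkca, 0.0405 at chr16:77396736-77407294 and 0.0453 near Ssx2ip. The Prkca member, at a protein kinase C gene, differed by 39.2, 27.6, −24 and 26.6 rank points.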

How the results depend on the processing

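All counts are of called members. In lists of equal length they were, for hypothalamus, 61 in MOR-LPS against SAL-LPS (162 as reported), 6 in SAL-LPS against SAL-SAL (11) and 93 in MOR-LPS against MOR-SAL (164), for hippocampus 1 in SAL-LPS against SAL-SAL (0), for striatum 2 against SAL-LPS (216) and 7 against MOR-SAL (134), over the 4 brain regions 403 (690), 296 (571) and, for sex, 175 (407), and for differences between brain regions 0 (5) in MOR-LPS against SAL-LPS, 9 (3) in MOR-SAL against SAL-SAL and 17 (49) in SAL-LPS against SAL-SAL. With a −log10 q of at least 5 hypothalamus gave 21, 0 and 29, PFC 19 in MOR-LPS against SAL-LPS (0), hippocampus 2 in SAL-LPS against SAL-SAL (0) and striatum 59 and 19. With marker terms hypothalamus gave 27 and 3, striatum 0 and 1 and the 4 brain regions 161 and 207. Ranking fold enrichment gave 1 in striatum in MOR-SAL against SAL-SAL and in SAL-LPS against SAL-SAL (0 each), and ranking the striatum's own regions 52 and 12. Chosen after seeing the data were the lane tag as a term, with 93 in hypothalamus in MOR-LPS against SAL-LPS, lane 7 libraries alone, with 19, 4 and 0 there, and leaving out the 15 libraries of high oligodendrocyte share, with 28 in hypothalamus in SAL-LPS against SAL-SAL, 0 and 0 in striatum, 197 and 199 over the 4 brain regions and 20 for sex. The distance between summits was 415 bp from the mean of all peaks. The member in Rims1 had a difference of −0.161 in lists of equal length in PFC in MOR-SAL against SAL-SAL, of the opposite sign. The causes were not tested.

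Without the block by animal 869 and 689 members were called over the 4 brain regions, 544 for sex, and 3 and 30 for differences between brain regions in MOR-LPS against SAL-LPS and SAL-LPS against SAL-SAL. With the identifier prefix as block, also chosen after seeing the data, hypothalamus gave 185 and 170, striatum 252 and 129, and the 4 brain regions 854 and 688.

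Without 1 library, hypothalamus gave 53 to 323 in MOR-LPS against SAL-LPS, over 1.5 times off without MOR-LPS female 15-1 (73), 15-3 (81), 16-4 (86) or 18-1 (316), male 13-2 (323), 14-0 (70) or 14-4 (53), SAL-LPS female 10-2 (77), 10-4 (275), 3-1 (83) or 9-1 (80). It gave 54 to 303 in MOR-LPS against MOR-SAL, without MOR-LPS female 18-1 (278), male 13-2 (303), 14-0 (72), 14-4 (54) or 6-0 (91), or MOR-SAL female 18-0 (269). In SAL-LPS against SAL-SAL it gave 1 to 28, without SAL-LPS female 10-0 (28), 10-2 (1), 3-1 (5) or 9-1 (1), male 1-0 (18), 1-2 (6), 1-4 (7), 11-0 (1) or 3-3 (1), SAL-SAL female 10-1 (1), 10-3 (2) or 9-0 (2), male 3-2 (28) or 5-3 (1), and in MOR-SAL against SAL-SAL 0 to 1 (without MOR-SAL male 13-1). PFC gave 0 to 5 in MOR-LPS against SAL-LPS, without MOR-LPS female 12-2 (5) or 18-1 (4), male 14-0 (2), 17-1 (1) or 17-3 (2), or SAL-LPS male 1-4 (1), and 0 to 1 in SAL-LPS against SAL-SAL (SAL-SAL female 10-3). Hippocampus gave 0 to 1 in MOR-LPS against SAL-LPS (SAL-LPS female 10-4) and against MOR-SAL (MOR-LPS female 18-1 or male 13-2), and 0 to 10 in SAL-LPS against SAL-SAL, without SAL-LPS female 4-0 (9), male 1-0 (10) or 11-0 (7). Striatum gave 24 to 460 in MOR-LPS against SAL-LPS, without MOR-LPS female 12-2 (460), 15-3 (24), 16-0 (81), 16-2 (59) or 7-1 (31), male 14-4 (104), SAL-LPS female 10-0 (121), 10-2 (111), 10-4 (339), 3-1 (121), 4-4 (123) or 9-1 (138), or male 5-2 (332). It gave 13 to 265 in MOR-LPS against MOR-SAL, without MOR-LPS female 12-2 (265), 15-3 (45), 16-0 (56), 16-2 (52) or 7-1 (44), male 14-4 (62), MOR-SAL female 15-0 (28), 15-4 (34), 16-1 (13) or 7-2 (23), or male 8-0 (87), and 0 to 1 in MOR-SAL against SAL-SAL (SAL-SAL female 9-2). Without 1 animal the 4 brain regions gave 370 to 895 and 348 to 713, the lowest both without 15-3. Of 151 called single results 986 of 1239 values kept the call, 253 lost it and 0 reversed.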
